A study of Mus musculus with 21 samples.

Results

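The comparison concerned 6 male wild type C57BL/6 mice whose animal numbers lie above 56000, out of 21 mice in the series. They were 3 mice after maternal separation (MS), numbered 56999, 57000 and 57001, and 3 standard-reared controls (SR), numbered 57137, 57138 and 57139. Members were chosen by animal number and rearing label alone. Separation lasted 4 hr daily from postnatal day 10 to day 17, with the nest kept whole and away from the dam, and separated cages also lost part of their nesting material. SR litters stayed with the dam, and hippocampi of every mouse were taken at 10 weeks of age. The other 15 mice (6 MS, 9 SR) have numbers below 56000. Each rearing group above 56000 is 1 run of 3 consecutive numbers. The study housed weaned males in groups of 3 with litter mates, and the labels name no litter, so the effect of MS and any difference between these particular sets of 3 mice cannot be told apart. Every p-value below measures only the spread between mice within these sets.

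The hippocampus holds the granule cells of the dentate gyrus and the pyramidal neurons of CA1 to CA3, with glia between them. Immediate early genes such as Arc and Fos are transcribed within minutes of neuronal activity without new protein synthesis, and many of them encode transcription factors. Heat shock chaperones fold and protect proteins in the cytosol, and glucocorticoids, the stress hormones of the adrenal cortex, act on transcription in neurons and glia through their receptor. The choroid plexus, which makes cerebrospinal fluid in the ventricles next to the hippocampus, has very abundant transcripts of its own, Ttr above all, and can be carried along in dissection.

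Poly-A RNA was sequenced with 1 library per mouse, and the values are gene counts. Total counts lay between 18124939 and 24052716 in the 3 MS mice and between 20206636 and 26450808 in the 3 SR mice (exact two-sided permutation p = 0.7, where 3 against 3 cannot go below 0.1). Replicates within a group differed by 5.90 to 22.8 times the sampling noise, as chi-square divided by its degrees of freedom, so no library was a repeat of another. Markers of dentate granule cells (13 genes) summed to 1050 to 1366 CPM (counts of the gene scaled to the normalized total of its library) in these mice, those of CA1 neurons to 717.5 to 815.5 CPM and those of CA2 and CA3 neurons to 618.5 to 752.7 CPM, and none of these markers was at 0. MS mouse 54971, below 56000, stood apart with 692.6 CPM of the granule cell markers and 3085 CPM of striatal neuron markers, which summed to 203.6 to 229.9 CPM in the 6 mice. It was left out of the values below 56000 unless named. The study removed a single outlier that it did not name, but the group sizes it states equal those of the libraries analysed here, so whether 54971 was that outlier is not known. Several values below 56000 are therefore also given with it.

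The choroid plexus was the main axis of variation among the 6 mice. Its 16 markers summed to 987 CPM in MS mouse 56999, 61.5 in 57000 and 1476 in 57001, and to 66.7 CPM in SR mouse 57137, 4382 in 57138 and 1649 in 57139. Each group thus held a mouse with under 100 CPM, and the groups overlapped, although 2 of the 3 SR mice lay above every MS mouse. The first principal component of the 500 most variable genes carried 66.7% of their variance, and 13 of the 20 genes of largest weight on it were among these markers. All 16 markers were lower on average in MS, with a median log2 fold change of -1.14, which moved to -0.05 without SR mouse 57138, -0.62 without MS mouse 57000 and -1.99 without MS mouse 57001. No marker had an unadjusted p under 0.05 by edgeR. In the mice below 56000 the same 16 markers were all higher in MS, with a median of 1.84. That leaves out 54971, which had 18.2 CPM where the other 5 MS mice had 3359 to 4507, and with it the median was 1.56. In whole tissue, fewer cells of a type and less RNA per cell cannot be told apart.

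**Figure D1:**
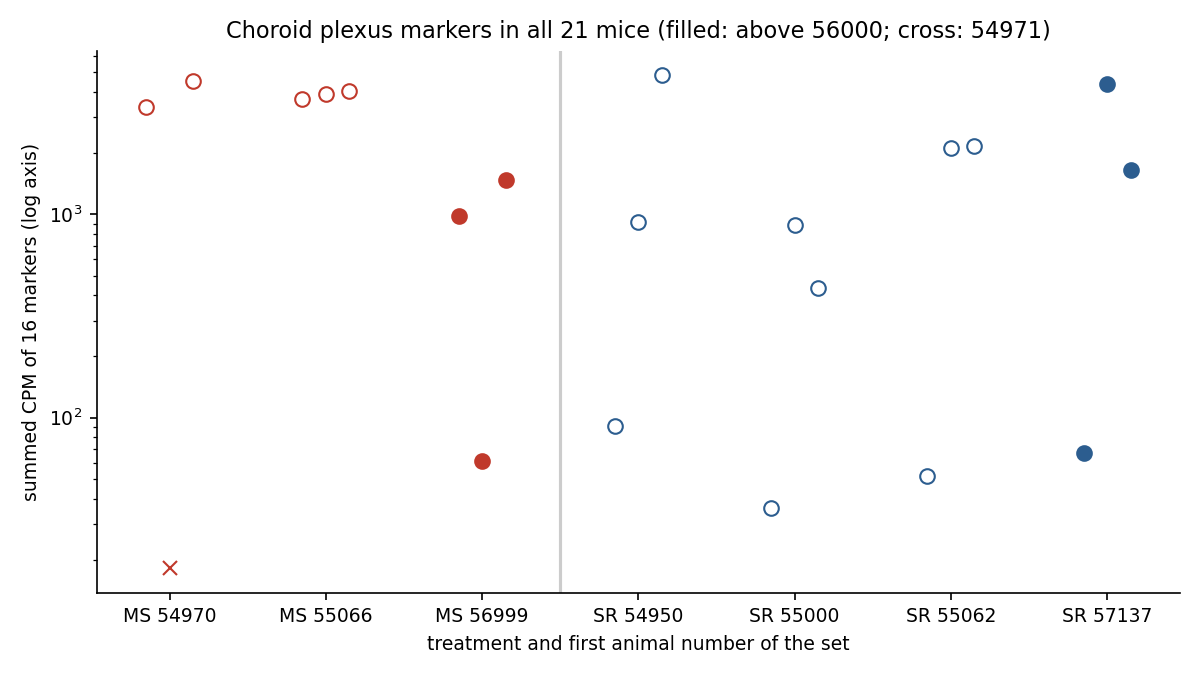
Summed CPM of the 16 choroid plexus markers (log axis) in all 21 mice, by set of 3 consecutive animal numbers. Red marks MS, blue marks SR, filled points are the 6 mice above 56000 and the cross is MS mouse 54971. The filled points of each group run from under 100 CPM to over 1000 CPM.

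Across 17940 genes tested in the 6 mice by edgeR's quasi-likelihood test, no gene had an adjusted p under 0.05 (0%). At an unadjusted p under 0.05 there were 810 genes, which is 4.52% of those tested, with 420 higher in MS (2.34%) and 390 lower (2.17%). Limma-voom also called 0 genes, with 814 at an unadjusted p under 0.05. DESeq2's Wald test called 3 genes, or 0.00882%: Arc and Tnfrsf25, higher in MS, and Rxfp1, lower. The 3 MS mice lay above all 3 SR mice in 1033 genes (5.76%) and below them in 911 (5.08%). The biological coefficient of variation that edgeR estimated for these 6 libraries was 12.7%.

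Arc led the comparison. It encodes a protein that binds endocytic machinery at synapses and removes AMPA receptors, and lies on chromosome 15 at 74669083 to 74672570 (GRCm38). Arc had 148 CPM in MS mouse 56999, 171 in 57000 and 160 in 57001, and 103 CPM in SR mouse 57137, 83.4 in 57138 and 88.1 in 57139. The lowest MS mouse was well above the highest SR mouse. The log2 fold change was 0.80 ± 0.093 (SE), or 1.74-fold (adjusted p = 0.109 by edgeR, 1.49e-09 by DESeq2). With the choroid plexus level as a term, added after the data were seen, edgeR's adjusted p for Arc was 0.0392.

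The level of Arc in the other sets places this difference. Scaled over all 21 mice, the 3 SR mice above 56000 had 84.4 to 105 CPM and the 3 MS mice 149 to 173 CPM. The 14 mice below 56000 ran from 138 to 363 CPM with a median of 171.5, and 54971 had 373. The SR mice above 56000 were therefore below every other mouse of the series, and the MS mice above 56000 were within the range of the rest. Below 56000 the log2 fold change of Arc was 0.095 (adjusted p = 0.873 by edgeR, and 0.18 with an adjusted p of 0.628 with 54971), and the difference between the comparisons was 0.70 ± 0.33 (SE, adjusted p = 0.612 by edgeR).

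**Figure D2:**
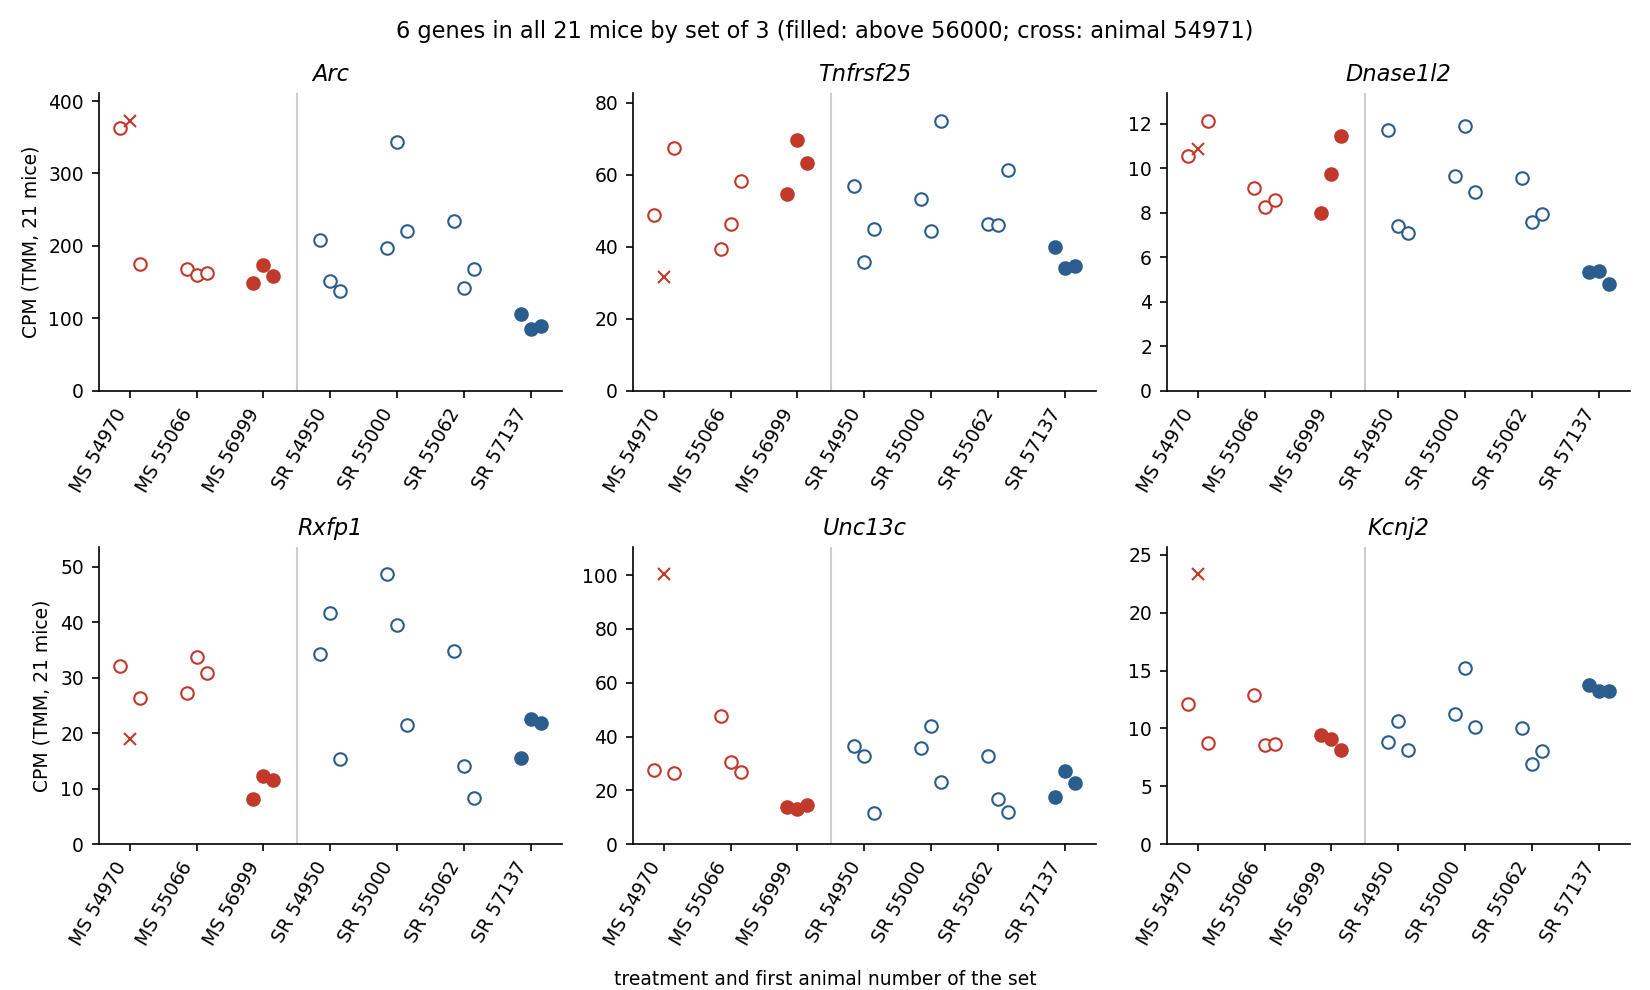
CPM of 6 genes in all 21 mice by set of 3 consecutive animal numbers, scaled over 21 libraries. Red marks MS, blue marks SR, filled points are the mice above 56000 and the cross is MS mouse 54971. In Arc and Dnase1l2 the filled SR points lie under all other points, and in Rxfp1 and Unc13c the filled MS points lie near the low end of the range.

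Most other immediate early genes had a positive log2 fold change, smaller than that of Arc. All 18 genes of the list were tested, and 14 were higher (51.3% of all genes were), 6 of them at an unadjusted p under 0.05 by edgeR (2.34% of all genes were) and none lower at that level. In 7 of the 18 the 3 MS mice lay above the 3 SR mice, as in 5.76% of all genes, and in none below. The median log2 fold change was 0.18, against 0.0052 over all genes, and it was 0.081 without SR mouse 57138. The 6 were Arc, Nr4a1, Fos, Junb, Jun and Ier2, and the seventh without overlap was Fosb. None passed the adjusted threshold: apart from Arc, every gene of a list below that had an unadjusted p under 0.05 had an adjusted p of 0.937. Below 56000, 15 of the 18 were higher in MS (49.9% of all genes were), with a median of 0.13. With 54971 it was 14 of 18 and 0.24. Summed, the 18 gave 893.5, 814.2 and 855.4 CPM in SR mice 57137, 57138 and 57139, under every other mouse of the series. The next was SR mouse 54952 with 897 CPM, close to 57137. MS mice 56999, 57000 and 57001 had 958.8, 1025 and 941.7 CPM, within the range of the rest. The sum includes Arc.

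Fos, a subunit of the AP-1 transcription factor, had 5.88, 6.50 and 8.88 CPM in MS mice 56999, 57000 and 57001 and 3.99, 4.42 and 4.85 CPM in SR mice 57137, 57138 and 57139 (log2 fold change 0.68 ± 0.19 SE). Junb, its partner in AP-1, had 53.9, 48.3 and 49.0 CPM against 45.8, 37.5 and 38.4 (0.32 ± 0.094). Nr4a1, an orphan nuclear receptor, had 70.6, 66.7 and 56.7 CPM against 54.2, 50.2 and 50.7 (0.32 ± 0.09). Within each of these genes the groups did not overlap, although the MS mouse with the highest value was a different one for Fos than for Junb and Nr4a1. Scaled over all mice of the series, Nr4a1 had 50.7 to 55.2 CPM in the SR mice above 56000. MS mice 56999, 57000 and 57001 had 70.9, 67.7 and 56.2 CPM on that scale. The mice below 56000 ran from 63.8 to 152 CPM, and 54971 had 180. The SR mice above 56000 and MS mouse 57001 thus lay under all of them, and 56999 and 57000 lay near the low end of their range. Jun had 141, 145 and 125 CPM in MS and 120, 109 and 117 in SR (0.25 ± 0.078). Other members showed no such gap: Egr1, the zinc finger factor often measured beside Arc, had 88.8, 94.8 and 96.0 CPM in MS and 101, 89.0 and 95.7 in SR, a log2 fold change of -0.03. Bdnf, a neurotrophin, was at -0.01, Homer1 at 0.02 and Nr4a2, another orphan nuclear receptor, at -0.19.

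The promoters of the 4 members with an unadjusted p under 0.05 for which RefSeq (GRCm38.p6) gave a sequence are shown, since binding sites near the start are what immediate early genes are known for. Each runs from 250 bases before to 50 after the start, and capitals mark TGACG, the core of the cAMP response element (CRE), on either strand. For Nr4a1 the RefSeq start lies 12577 bases inside the outermost start of the GENCODE gene. Arc and Ier2 had no entry.
Fos, chr12:85473640-85473939, plus strand: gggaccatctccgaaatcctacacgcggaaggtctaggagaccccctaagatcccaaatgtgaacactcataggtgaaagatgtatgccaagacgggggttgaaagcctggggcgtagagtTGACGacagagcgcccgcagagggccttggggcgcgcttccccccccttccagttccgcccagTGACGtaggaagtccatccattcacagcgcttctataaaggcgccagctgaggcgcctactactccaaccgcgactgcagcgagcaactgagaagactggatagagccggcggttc
Junb, chr8:84978699-84978998, minus strand: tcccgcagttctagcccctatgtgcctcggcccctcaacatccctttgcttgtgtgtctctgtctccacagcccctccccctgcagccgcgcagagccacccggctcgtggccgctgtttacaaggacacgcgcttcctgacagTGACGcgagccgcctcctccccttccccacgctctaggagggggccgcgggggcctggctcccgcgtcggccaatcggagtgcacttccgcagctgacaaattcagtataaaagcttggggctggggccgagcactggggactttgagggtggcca
Jun, chr4:95052173-95052472, minus strand: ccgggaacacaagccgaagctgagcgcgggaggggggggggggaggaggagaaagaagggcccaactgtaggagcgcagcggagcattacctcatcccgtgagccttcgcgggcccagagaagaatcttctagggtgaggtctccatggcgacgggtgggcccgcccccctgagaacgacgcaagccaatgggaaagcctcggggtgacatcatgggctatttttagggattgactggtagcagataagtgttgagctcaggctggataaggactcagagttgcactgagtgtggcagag
Nr4a1, chr15:101266596-101266895, plus strand: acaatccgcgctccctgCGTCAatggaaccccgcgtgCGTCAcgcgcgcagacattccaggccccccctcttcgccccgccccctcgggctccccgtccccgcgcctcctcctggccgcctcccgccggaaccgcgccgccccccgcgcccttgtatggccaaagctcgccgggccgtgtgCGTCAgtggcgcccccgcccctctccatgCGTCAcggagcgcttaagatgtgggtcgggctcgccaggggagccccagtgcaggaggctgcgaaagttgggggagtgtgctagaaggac
TGACG was found in 11 of the 14 list members with an entry and in 20.8% of all 32841 promoters of this length. The whole palindrome TGACGTCA, which contains TGACG, was in 2 of the 14 (Dusp1 and Btg2) and in 1.79% of all. The CArG box of serum response factor, searched on both strands, was in 0 of the 14 and in 1.63% of all promoters. Bases further than 250 before the start were not searched, and Arc, Egr1, Egr3 and Ier2 had no entry, so sites there would be missed. A match is a string of letters and not a measured site, and the members with a match included genes with a log2 fold change near 0, such as Nr4a3 (-0.0087) and Homer1 (0.019).

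**Figure D3:**
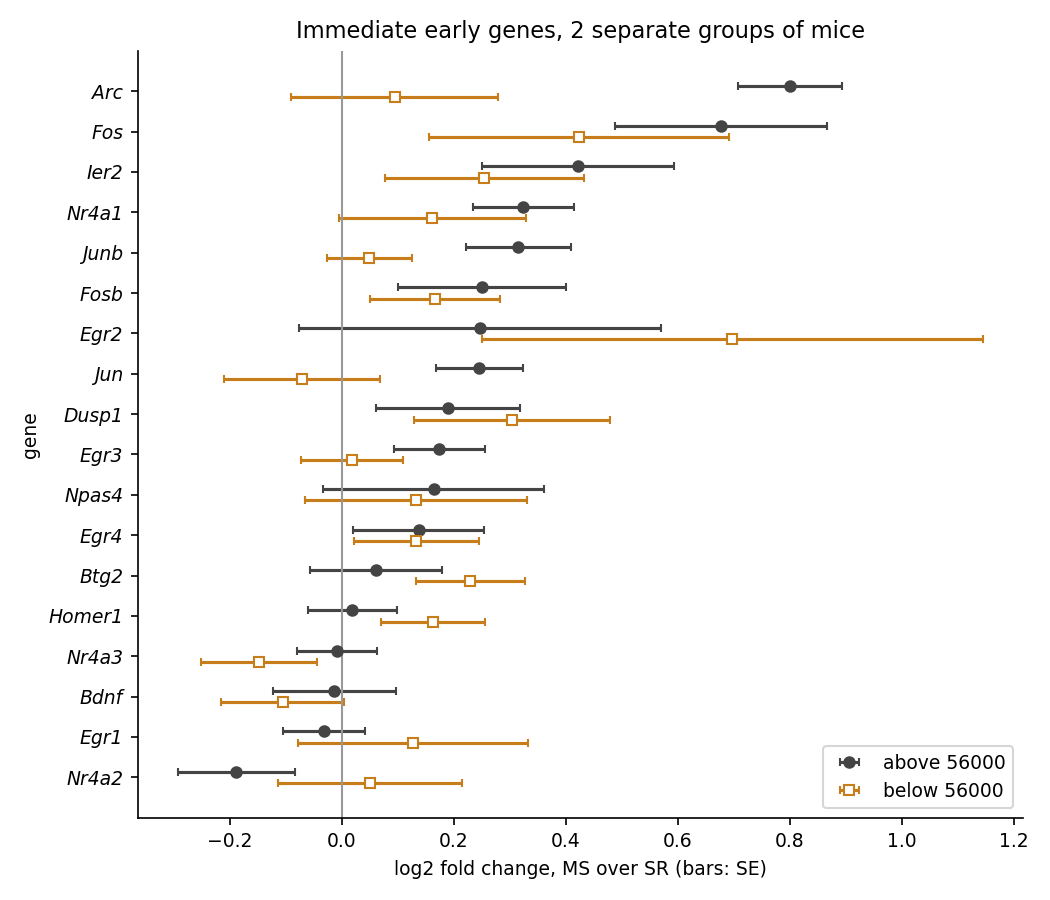
Log2 fold change of MS over SR with its SE for the 18 immediate early genes, in the 6 mice above 56000 (dark circles) and in the 14 below (open squares). Arc is at 0.80 above and 0.095 below 56000, and Egr1 and Bdnf lie close to 0 above 56000.

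Among the 10 genes of smallest p that were higher in MS, Tnfrsf25 followed Arc. It encodes death receptor 3, a receptor of the tumour necrosis factor family, and lies on chromosome 4 at 152115934 to 152120119. It had 54.3, 68.6 and 63.8 CPM in MS mice 56999, 57000 and 57001 and 39.3, 33.7 and 34.6 CPM in SR mice 57137, 57138 and 57139 (log2 fold change 0.80 ± 0.10 SE, adjusted p = 0.128 by edgeR and 6.56e-07 by DESeq2). The groups were far apart, and edgeR called the gene when MS mouse 56999 was left out (adjusted p = 0.0163). Scaled over 21 mice, however, the 14 mice below 56000 ran from 35.8 to 75.1 CPM, a range that held the 3 MS mice and 1 of the SR mice (34.1 to 40.03 CPM), and the log2 fold change there was 0.051 (-0.074 with 54971).

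The remaining 8 had adjusted p = 0.937 by edgeR. Dnase1l2, a deoxyribonuclease, had 7.94, 9.60 and 11.6 CPM in MS and 5.24, 5.32 and 4.75 in SR (0.92 ± 0.16). Dok3, an adaptor protein of immune cell signalling, had 25.9, 29.2 and 26.7 CPM against 20.02, 19.7 and 19.8 (0.46 ± 0.086). Clk1, a kinase of splicing factors, had 138, 150 and 148 CPM against 125, 107 and 109 (0.35 ± 0.078). In all 3 genes every SR mouse lay below every MS mouse. Gjb6, the astrocyte gap junction protein connexin 30, had 60.8, 50.2 and 48.3 CPM in MS and 38.6, 40.5 and 40.5 in SR (0.41 ± 0.095). Otub2, a deubiquitinase, had 53.8, 56.0 and 54.7 CPM against 45.9, 43.5 and 43.3 (0.31 ± 0.069). Ccdc117 (0.51), Kctd6, an adaptor of a ubiquitin ligase (0.33), and Jmjd6, a hydroxylase of nuclear proteins (0.33), completed the 10. Jmjd6 shares 172 exon bases with Mettl23 on the opposite strand, and whether the counting used strand is not given in the sources used here.

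**Figure D4:**
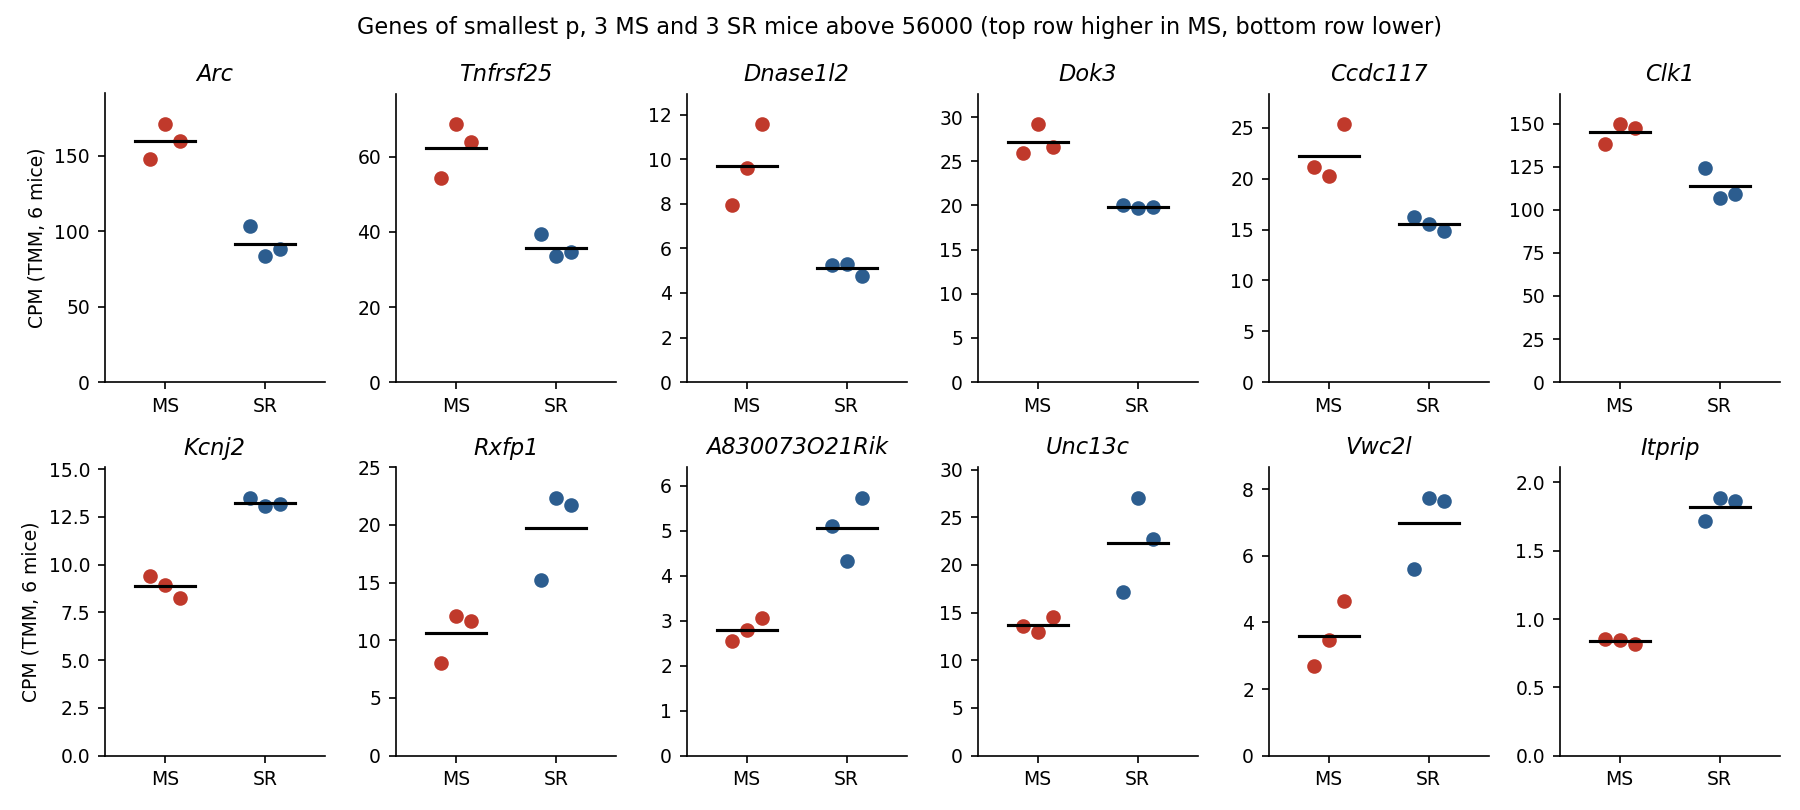
CPM per mouse for the 6 genes of smallest p in each direction, 3 MS mice (red) and 3 SR mice (blue) above 56000, with the mean as a bar. In each panel the MS and SR points do not overlap, which the choice of smallest p favours.

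Among the 10 genes of smallest p that were lower in MS, Rxfp1 was the only gene that DESeq2 called. Rxfp1, the receptor of the hormone relaxin, had 8.03, 12.1 and 11.7 CPM in MS mice 56999, 57000 and 57001 and 15.3, 22.3 and 21.7 CPM in SR mice 57137, 57138 and 57139 (log2 fold change -0.90 ± 0.19 SE, adjusted p = 0.937 by edgeR, 0.0398 by DESeq2). Unc13c, which primes synaptic vesicles, had 13.6, 13.0 and 14.5 CPM against 17.2, 27.0 and 22.7 (-0.70 ± 0.15). Chrna4, a nicotinic acetylcholine receptor subunit, had 14.7, 15.9 and 19.4 CPM against 20.4, 27.4 and 28.6 (-0.62 ± 0.15). In each gene SR mouse 57137 was the lowest of the SR mice and lay closest to the MS mice. Kcnj2, an inwardly rectifying potassium channel, differed in this respect, with 9.42, 8.96 and 8.23 CPM in MS and 13.5, 13.1 and 13.2 in SR (-0.58 ± 0.11). Vwc2l, a secreted protein, had 2.69, 3.48 and 4.63 CPM against 5.61, 7.74 and 7.65 (-0.97 ± 0.22). Itprip had 0.852, 0.849 and 0.818 CPM against 1.72, 1.89 and 1.86 (-1.11 ± 0.26), and it overlaps Cfap43 on the same strand. A830073O21Rik, Gm13380, A930036I15Rik and Accsl made up the rest, the last 3 of them mostly under 1 CPM, where counting error is largest.

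The values of Rxfp1, Unc13c and Vwc2l were compared with the other sets. On the scale of 21 mice, Rxfp1 had 8.07 to 12.3 CPM in the MS mice and 15.5 to 22.6 CPM in the SR mice above 56000, and the 14 mice below ran from 8.39 to 48.6 CPM with a median of 31.5. Unc13c gave 13.2 to 14.4 and 17.5 to 27.3 CPM, against 11.7 to 47.6 CPM with a median of 28.9 below 56000. Vwc2l gave 2.71 to 4.59 and 5.71 to 7.83 CPM, against 2.47 to 15.1 CPM with a median of 9.39. In these 3 genes all 6 mice lay under the median of the other 14, and neither group lay outside their range as a whole. Of the 20 genes named by smallest p, the SR mice above 56000 lay outside the range of the 14 other mice in 5 (Arc, Dnase1l2, Ccdc117, Clk1 and Jmjd6, lower in each), and the MS mice above 56000 in 1 (Otub2, higher). These 20 genes were chosen from the contrast of these groups, so the counts describe them and test nothing.

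The largest differences among genes of at least 1 CPM without overlap were in less abundant transcripts. Xlr3b, an X-linked gene of an imprinted family, had 10.3, 7.26 and 17.8 CPM in MS and 1.11, 6.94 and 5.93 in SR (log2 fold change 1.32 ± 0.68 SE), so the lowest MS mouse barely passed the highest SR mouse. Its neighbour Xlr3a had 1.57, 2.42 and 3.05 CPM against 0.881, 1.09 and 1.23 (1.13 ± 0.30). The Xlr3 genes are near-identical copies, and reads that fit more than a single copy make their separate values uncertain. Sytl1, a partner of the vesicle GTPase Rab27, had 1.62, 1.66 and 1.91 CPM against 0.603, 0.868 and 0.784 (1.18 ± 0.28), and G530011O06Rik, whose exons overlap Mid1 on the opposite strand, was at 1.18. Lower in MS were Col6a4, a chain of collagen VI, with 1.39, 5.48 and 4.91 CPM against 12.2, 7.85 and 12.4 (-1.46 ± 0.45), Slc23a1, a vitamin C transporter (-1.30), and Acr, the sperm protease acrosin (-1.18). Of these 10 largest differences 9 had an unadjusted p under 0.05, and all had an adjusted p of 0.937 by edgeR.

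The mice below 56000 share no animal with the 6, so their values are separate measurements of the same contrast. Over 17940 genes, 51.2% had the same sign in the comparisons above and below 56000. Of the 810 genes with an unadjusted p under 0.05 above 56000, 403 had the same sign below (49.8%), as did 9 of the 20 genes named by smallest p and 4 of the 10 largest differences. Across genes, Pearson's r between the log2 fold changes was -0.19 and Spearman's rho was -0.01, given as a description since genes share libraries. Below 56000, 22 genes had an adjusted p under 0.05 by edgeR (0.111%) and 2803 an unadjusted p under 0.05 (14.1%). With 54971 included, 2 genes were called there, and 371 of the 810 genes (45.8%) and 49.7% of all genes had the same sign. Among the 20 named genes, 3 had an unadjusted p under 0.05 below 56000: Ccdc117 with a log2 fold change of 0.27 (adjusted p = 0.12 by edgeR) and Jmjd6 with 0.14 (adjusted p = 0.172), each in the direction seen above 56000, and Itprip with 0.56 (adjusted p = 0.242), the opposite direction.

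The difference between the comparisons was tested gene by gene over 20 libraries, and edgeR called 0 genes (0%), with 1623 at an unadjusted p under 0.05 (8.17%). DESeq2 called 18 (0.0945%). The smallest p belonged to Phkg1, a catalytic subunit of phosphorylase kinase. It had 39.1, 36.9 and 36.7 CPM in MS and 32.6, 30.5 and 31.5 in SR above 56000 (log2 fold change 0.25) and was at -0.21 below, a difference of 0.46 ± 0.087 (SE, adjusted p = 0.444 by edgeR). Hsd11b1, the enzyme that regenerates active glucocorticoid inside cells, had 38.6, 32.0 and 24.5 CPM against 25.4, 23.4 and 25.1 (0.37) and was at -0.39 below 56000. Its MS values were spread, and MS mouse 57001 lay among the SR mice. Capn1, a calcium-dependent protease, and mt-Rnr1, the small ribosomal RNA of mitochondria, were at 0.29 and 0.37 above and at -0.14 and -0.16 below. In the other direction Cyb561, an electron carrier of secretory vesicles, was at -0.40 above and 0.48 below, and Tns1, a focal adhesion protein, at -0.23 and 0.31. All of these had an adjusted p of 0.444.

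Cytosolic heat shock chaperones were all higher on average in MS, 17 of 17, where 51.3% of all genes were. At an unadjusted p under 0.05 by edgeR 4 were higher (Hspa1b, Fkbp4, Hspa1a and Dnajb1), as were 2.34% of all genes. None passed the adjusted threshold, and the median log2 fold change of the list was 0.16 (0.084 without MS mouse 57001). Hspa1b, an inducible HSP70, had 59.8, 43.0 and 73.3 CPM in MS mice 56999, 57000 and 57001 and 38.9, 39.7 and 45.2 CPM in SR mice 57137, 57138 and 57139 (0.51 ± 0.17 SE). MS mouse 57000 lay among the SR mice, so the groups overlapped. Hspa1a, its near-identical copy with which reads may be shared, had 40.6, 30.9 and 54.1 CPM against 28.7, 31.9 and 32.0 (0.44 ± 0.18), and MS mouse 57000 again lay among the SR mice. Fkbp4, a cochaperone of steroid receptors, was at 0.27 and Dnajb1, an HSP40, at 0.30. Below 56000, 16 of the 17 were higher (49.9% of all genes were), with a median of 0.17. ER chaperones and unfolded protein response genes were higher in 22 of 26 (median 0.13, 0.051 without SR mouse 57137 and 0.074 without MS mouse 57001), none of them at an unadjusted p under 0.05, while Trib3, a pseudokinase induced by that response, was lower at 0.269, 0.255 and 0.218 CPM against 0.510, 0.604 and 0.539 (-1.13 ± 0.43).

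Above 56000, transcripts of the ribosome and of the nuclear-encoded respiratory chain were slightly higher in MS, and there this rested on MS mouse 56999. Cytosolic ribosomal protein genes were higher in 79 of 79 (51.3% of all genes were), with 4 at an unadjusted p under 0.05 (2.34% of all genes were higher at that level). Their median log2 fold change was 0.18. Summed, they gave 10890 CPM in 56999, 8528 in 57000 and 7207 in 57001, and 7883, 7986 and 7843 CPM in SR mice 57137, 57138 and 57139. The MS mice thus lay on either side of a tight SR group. Without 56999 the median was 0.012. Complex I subunits were higher in 34 of 36 (1 at that level, median 0.10, and -0.04 without 56999) and subunits of complexes II to V in 37 of 39 (0 at that level, median 0.11, and -0.0023 without 56999). Without MS mouse 57001, the lowest, the 3 medians were 0.31, 0.21 and 0.20. The mice below 56000, which do not include 56999, had the same direction. There 74 of 79 ribosomal genes were higher in MS (median 0.14), where 49.9% of all genes were. Complex I subunits were higher in 30 of 36 (0.14) and those of complexes II to V in 37 of 39 (0.21). With 54971 these medians were 0.14, 0.12 and 0.17. The correlation of a library's relative expression with transcript length was -0.33 in 56999, -0.02 in 57000 and 0.21 in 57001, and 0.036 to 0.10 in the SR mice, so the mouse richest in these short transcripts was also the one with the strongest tilt to short transcripts. Its part in the result was not tested beyond a fit with the length trend removed, which left medians of 0.13, 0.054 and 0.06.

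The mitochondrially encoded mRNAs did not follow the nuclear ones. They were higher in 6 of 13 above 56000, none at an unadjusted p under 0.05, with a median log2 fold change of -0.01 (-0.10 without MS mouse 57000 to 0.068 without 57001) and a range of -0.18 to 0.24. Below 56000 all 13 were lower in MS, with a median of -0.25. The left-out mouse 54971 had the most of these mRNAs (57840 CPM summed, against 35790 to 43590 in the other 5 MS mice), and with it 12 of 13 were lower, with a median of -0.12. In the test of the difference, 7 of the 13 had an unadjusted p under 0.05 (8.17% of all genes did), 1 of the 13 with 54971 included, and none passed adjustment. The smallest p among them was that of mt-Atp6, a subunit of the ATP synthase, with 5757, 6139 and 4809 CPM in MS and 5355, 5644 and 5302 in SR above 56000 (0.035, against -0.31 below, or -0.18 with 54971).

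Genes induced by glucocorticoids were higher in 15 of 17 (51.3% of all genes were). At an unadjusted p under 0.05 by edgeR 3 were higher (2.34% of all genes were). The median log2 fold change was only 0.048, and it was 0.20 without MS mouse 57001, 0.084 without MS mouse 57000 and 0.14 without SR mouse 57137. Ddit4, an inhibitor of mTORC1, had 43.0, 43.1 and 37.4 CPM in MS and 37.2, 29.8 and 29.4 in SR (0.36 ± 0.11). Errfi1, a feedback inhibitor of the epidermal growth factor receptor, was at 0.25 and Tsc22d3, which encodes GILZ, at 0.20, each without overlap. Fkbp5, the most used readout of receptor activity, had 65.2, 71.6 and 64.5 CPM against 70.9, 61.5 and 63.6 (0.039), and Sgk1 and Per1 were at 0.013 and 0.028.

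Clustered protocadherins, cell surface proteins that give neurons individual identities, were lower in 37 of 55, where 51.3% of all genes were higher. At an unadjusted p under 0.05 by edgeR 6 were lower (2.17% of all genes were) and none higher. The median log2 fold change was -0.11 (-0.056 without SR mouse 57137). In 7 of the 55 the MS mice lay below the SR mice without overlap, against 5.08% of all genes. Pcdha5 had 2.29, 3.01 and 3.16 CPM in MS and 4.64, 3.85 and 4.85 in SR (-0.65 ± 0.20), and Pcdhb19 had 4.49, 3.95 and 3.92 CPM against 6.03, 5.59 and 6.03 (-0.51 ± 0.15). Of the 6, Pcdha3 and Pcdha5 share 2860 exon bases with the other genes of their cluster, where reads cannot be assigned to a single gene. Pcdhb5, Pcdhb19 and Pcdhb21 are of the beta cluster and Pcdhga6 is of the gamma cluster. Shared exons of Pcdhga6 were not examined, so the same limit may hold for it. Below 56000 the list was lower in 38 of 55, with a median of -0.093 (39 of 55 and -0.092 with 54971). These 2 members went the other way there, with Pcdha5 at 0.12 and Pcdhb19 at 0.024 (0.066 and 0.055 with 54971). Glutamate and GABA-A receptor subunits were lower in 18 of 27 (median -0.056, -0.12 without MS mouse 57000 to -0.01 without 56999), clock genes higher in 10 of 18 (0.017, 0.0075 without MS mouse 57001 to 0.032 without 56999) and interferon-stimulated genes higher in 8 of 18 (-0.0077, -0.22 without MS mouse 56999 to 0.12 without 57000), each with 1 member at an unadjusted p under 0.05. Of all genes 4.52% were at that level in either direction.

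**Figure D5:**
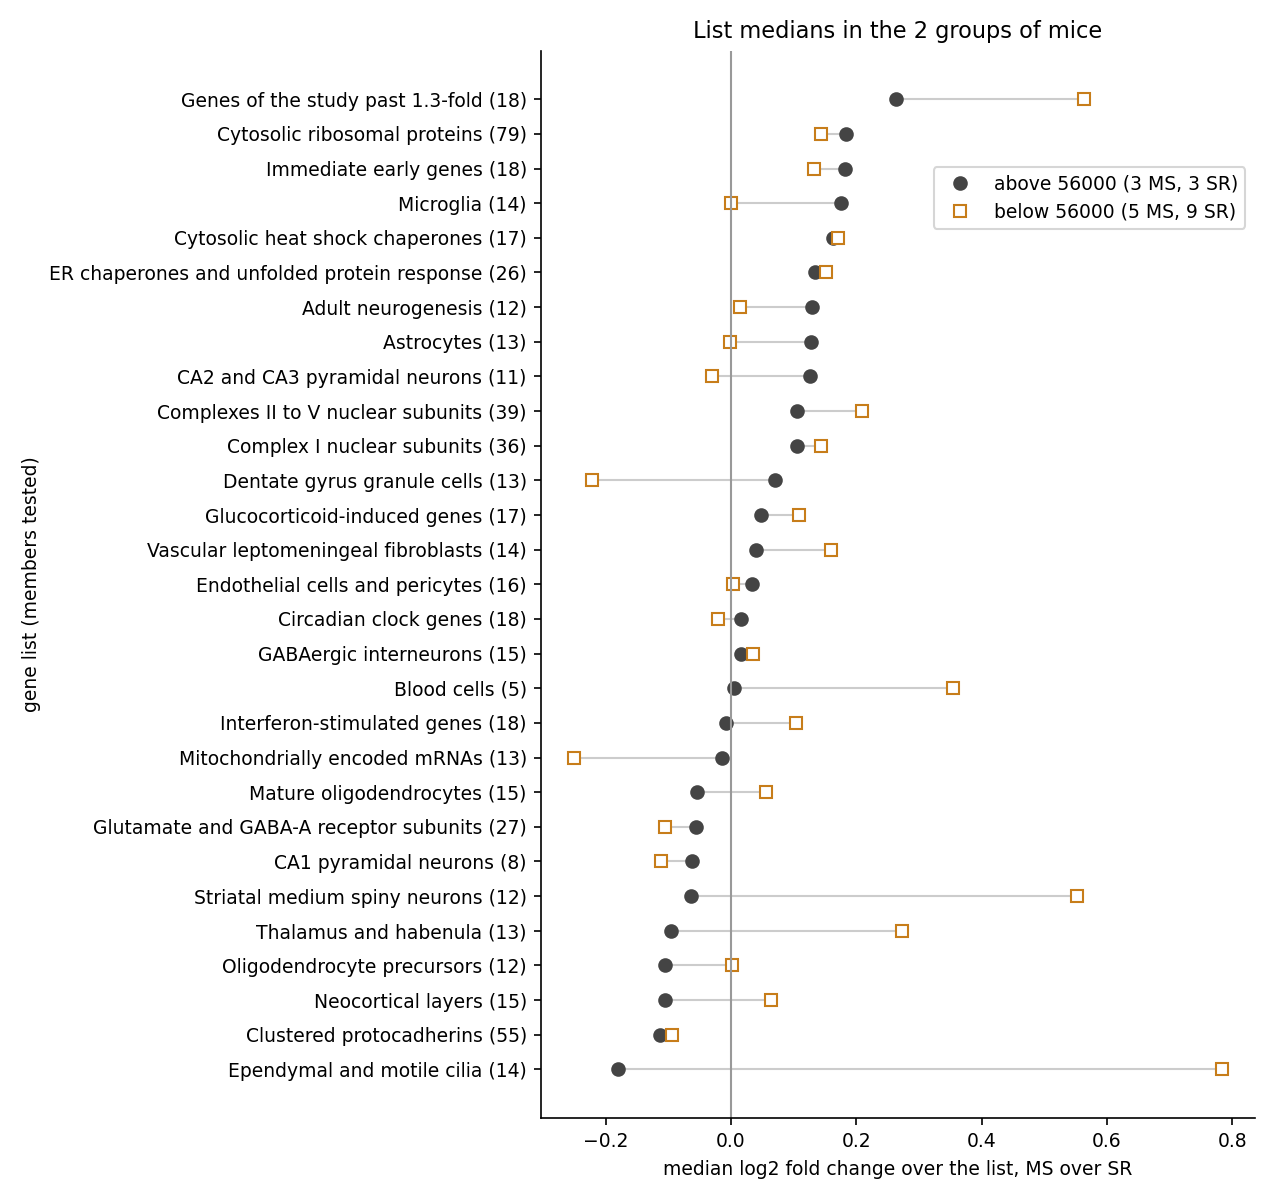
Median log2 fold change of MS over SR for 29 gene lists, in the 6 mice above 56000 (dark circles) and in the 14 below (open squares), with the number of members tested. The choroid plexus list, at -1.14 above and 1.84 below, is left out of the plot for scale. Ribosomal, heat shock and immediate early genes lie at 0.16 to 0.18 above 56000. Several lists lie far apart between the groups of mice. The ependymal list is at -0.18 above and 0.78 below, and the striatal list at -0.063 and 0.55. The thalamus, blood, granule cell and mitochondrial mRNA lists, and the genes of the study, also lie apart.

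Astrocyte markers were higher in 12 of 13 (median 0.13, range 0.087 to 0.13 when each mouse was left out in turn), with Gjb6 as the only member at an unadjusted p under 0.05. Of all genes 51.3% were higher, and 4.52% had an unadjusted p under 0.05 in either direction. Slc1a3, an astrocyte glutamate transporter, had 547, 612 and 575 CPM in MS and 542, 519 and 527 in SR, a log2 fold change of 0.13, and Gja1, connexin 43, had 187, 173 and 173 against 161, 154 and 165 (0.15). Aqp4, the water channel of astrocyte endfeet, was at 0.034. Microglial markers were higher in 12 of 14 (median 0.18, 0.064 without MS mouse 56999 and 0.27 without 57001). Their summed level was 449, 409 and 339 CPM in MS and 374, 362 and 363 in SR, so MS mouse 57001 had the lowest of the 6. Ptprc, which encodes CD45 of all leukocytes, was the member at an unadjusted p under 0.05 and was lower, with 2.87, 2.34 and 1.91 CPM against 3.43, 3.43 and 3.28 (-0.51 ± 0.21). Markers of CA2 and CA3 neurons were higher in 11 of 11 (median 0.13), with Homer3 at 0.26 as the member at an unadjusted p under 0.05, and those of dentate granule cells in 9 of 13 (0.07, but -0.051 without MS mouse 57000 and 0.15 without SR mouse 57137). Below 56000 the medians of these 4 lists were -0.001, 0.0003, -0.03 and -0.22, and with 54971 they were 0.0034, 0.076, -0.14 and -0.35. Neocortical markers were lower in 10 of 15 (median -0.11, -0.0003 without SR mouse 57139 and -0.18 without 57137), ependymal markers in 11 of 14 (-0.18, but 0.23 without MS mouse 57000, -0.50 without 56999, -0.36 without 57001, and -0.071 and -0.11 without SR mice 57138 and 57139), and oligodendrocyte precursor markers in 9 of 12 (-0.10, and -0.17 without MS mouse 56999). Below 56000 the ependymal list went the other way. There 14 of 14 of its markers were higher in MS (49.9% of all genes were), with a median of 0.78 (0.65 with 54971). Above 56000, adult neurogenesis markers were higher in 10 of 12 (median 0.13, 0.054 without SR mouse 57138 and 0.24 without 57137). Neurod1, a transcription factor of maturing granule neurons, had 28.3, 31.3 and 27.1 CPM in MS and 24.9, 23.1 and 24.8 in SR (0.25 ± 0.088), while Dcx, the microtubule protein of immature neurons, had 14.9, 17.0 and 19.95 CPM against 21.1, 17.9 and 25.3 (-0.31 ± 0.15), where the groups overlapped. Markers of CA1 neurons, striatal neurons, thalamus, mature oligodendrocytes, interneurons, endothelium, fibroblasts and blood had medians between -0.096 and 0.04, with 2 members in all at an unadjusted p under 0.05. Several of these medians rested on single mice. Those of blood ran from -0.73 without MS mouse 56999 to 0.55 without SR mouse 57139, those of fibroblasts from -0.35 without MS mouse 56999 to 0.32 without 57000, and those of mature oligodendrocytes from -0.26 to 0.18 without the same mice. The medians of striatal neurons (-0.12 to 0.015), interneurons (-0.072 to 0.042) and endothelium (-0.0082 to 0.062) also changed sign, while those of CA1 neurons (-0.10 to -0.035) and thalamus (-0.16 to -0.056) stayed negative.

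The 18 genes that the study lists with a change beyond 1.3-fold had the same sign in the 6 mice as below 56000, 18 of 18, with 15 higher and 3 lower in MS. The study chose them on a set of mice that includes these 6, so neither their direction nor their p-values here are independent evidence. Their median log2 fold change was 0.26 above 56000 and 0.56 below, and past 1.3-fold at any p were 10.8% of all genes. The 3 lower genes had an unadjusted p under 0.05 above 56000 (2.17% of all genes were lower at that level). Zfp46, a zinc finger protein, had 39.2, 40.9 and 37.3 CPM in MS and 55.1, 47.2 and 46.5 in SR (-0.34 ± 0.087). Eps8l1, an actin regulator, was at -0.54 and Pla2g4e, a phospholipase, at -0.48, each without overlap. Of the 15 higher genes, Gm10060 alone had an unadjusted p under 0.05, with 1.57, 1.06 and 1.85 CPM against 0.881, 0.830 and 0.931 (0.75 ± 0.31). Hspa5, the ER chaperone BiP, had 406, 282 and 481 CPM against 254, 348 and 356 (0.29), and Slc5a3, a transporter of myo-inositol, had 27.1, 27.1 and 47.5 CPM against 27.4, 36.8 and 33.0 (0.057), where a single MS mouse carried the difference.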

How the data were processed

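Raw counts per gene were deposited by the authors as 1 table, made per the labels with STAR 2.7.3a on GRCm38 and featureCounts, from a directional poly-A library kit. Whether counting used strand is not given in the sources used here. Counts of the 6 libraries above 56000 were normalized by TMM, filtered with filterByExpr (minimum count 10) and tested with edgeR 4.0.16's robust quasi-likelihood test in R 4.3.3 (Benjamini-Hochberg over the genes tested, threshold 0.05). An SE was obtained by dividing the fold change on the log2 scale by the root of the F statistic. DESeq2 1.42.0 and limma 3.58.1 were alternatives. The values below 56000, and the difference, came from a fit of 7 set means to 20 libraries, in which MS and SR are means of 2 and 3 sets. Normalization to 6 or to 21 libraries shifts CPM slightly, and summed levels of marker lists are scaled to 21. The study used DESeq2 on its MS and SR mice of both number ranges together, after removing an outlier that it did not name.

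Genes were named by smallest p (10 each way), by largest difference (5 each way, at least 1 CPM, no overlap), by membership of gene lists (2 of smallest p each), by the study's 18 genes, and by the difference between comparisons (5 each way). Others were named after their values were seen. The members and lists were chosen with earlier results of these data known. Positions and symbols are from GENCODE M21. Total counts of 18124939 to 26450808 give counting error that is largest for rare transcripts. Columns of no sample numbered 0. The computations were tested on simulated data. Alternatives were other normalizations, filters and tools, a spread shared over 20 or 21 libraries, the length trend removed, each mouse left out, and, added after the data were seen, a choroid plexus term and 54971 included below 56000.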

Additional observations from a re-analysis of the deposited data

Results flagged for a closer look

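Some results stood apart within a group of mice below 56000, to which the 6 mice were compared. Arc had 1 MS mouse at 363 CPM where the next had 174.8 (gap over range 0.92), and among 9 SR mice 1 at 343 CPM (0.53). Unc13c had 1 MS mouse at 47.6 CPM (0.81). Both MS values were set apart with 54971 left out. That mouse had 373 CPM of Arc and 100 CPM of Unc13c, more than the MS mouse named for each. The choroid plexus markers summed to 4821 CPM in 1 of 9 SR mice, above all others of that group (0.56). Chance alone sets about 1 in 20 such groups apart.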

How the results depend on the processing

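Without a filter on low counts edgeR called 29 genes between MS and SR, with DESeq2's Wald test 3 were called, and with the choroid plexus level as a term 1 (Arc). Leaving out each mouse in turn gave 0 to 1 called gene (Tnfrsf25, without MS mouse 56999), and 390 to 1816 genes at an unadjusted p under 0.05, lowest without SR mouse 57139 and highest without MS mouse 57001. Every other alternative called 0. For the difference between the comparisons, no filter gave 546 and DESeq2 18 called genes, leaving out each mouse 0 to 2 (without SR mouse 57137), and the other alternatives 0. Below 56000, including 54971 took the called genes from 22 to 2. The cause was not tested. The 20 genes of smallest p kept their sign in every alternative that tested them, which was 15 of the 16 for Gm13380, A930036I15Rik and Accsl. Of 111 named genes 5 changed sign: with each mouse left out, Alas2 ran from -0.80 to 0.028 (without SR mouse 57139), Hba-a2 from -0.85 to 0.39 (0.072, 0.18 and 0.39 without MS mice 57000 and 57001 and SR mouse 57139, and 0.034 with the choroid plexus term), Slc5a3 from -0.26 to 0.19 (-0.0041 by limma-voom, -0.26 without MS mouse 57001, -0.049 without SR mouse 57137), Atp5e from -0.10 to 0.51 (negative without MS mouse 56999) and Gm10243 from -0.0061 to 0.40 (negative without SR mouse 57138). The median of GABAergic interneuron markers moved from 0.016 to -0.072 without MS mouse 57001. No paired analysis was possible because the animal numbers of the groups are not shared. With 3 mice a group from 1 set each, rare transcripts and small differences are the least certain.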
